A study of Arabidopsis thaliana with 6 samples.

Results

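Regions bound by HA-tagged PRR7 were described at 7 B-box genes of Arabidopsis thaliana: BBX24 (AT1G06040), BBX25 (AT2G31380), BBX28 (AT4G27310), BBX29 (AT5G54470), BBX30 (AT4G15248), BBX31 (AT3G21890) and BBX32 (AT3G21150). A region belonged to a gene when its summit, the position of its highest signal, lay inside the gene or within 3000 bp of it. By this rule 17 of the 1563 regions in 4 deposited lists were at these genes. The genes were chosen with these same lists known, and all but BBX32 have such a region. The regions, their signals and their ranks are therefore given as a description, with no test. The 7 genes are part of a family of 32 B-box genes, among 27444 nuclear protein-coding genes.

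B-box proteins carry zinc-binding domains through which they contact other proteins, and many act in light signalling. BBX24 and BBX25 have a pair of B-boxes, bind the bZIP factor HY5, and are known repressors of seedling de-etiolation that the ubiquitin ligase COP1 helps to remove. BBX28 to BBX32 have a lone B-box and lack the CCT domain found in CONSTANS and in PRR proteins. BBX28 is known to interfere with HY5, BBX30 and BBX31 are microproteins that tie CONSTANS to a TOPLESS corepressor, and BBX32 is a repressor of light responses. PRR7 belongs to the pseudo-response regulators, clock proteins that repress transcription.

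Anti-HA chromatin immunoprecipitation followed by sequencing was done on whole seedlings aged 15 days, raised on Murashige and Skoog plates (0.8% agar, 2% sucrose) at 70 µmol m-2 s-1 in cycles of 12 h light and 12 h dark. Whole seedlings mix many cell types. The tagged line, prr7-3 PRR7::HA-PRR7 #151, expresses the tagged protein from PRR7's own promoter on a prr7-3 background and is a lone transgenic line. Untagged prr7-3 was the antibody control, so all plants carried prr7-3. Of 6 samples, 3 have a list used here: the HA-PRR7 immunoprecipitates (IPs) of experiments 1 and 2 and the prr7-3 IP of experiment 1. The series also holds input samples of HA-PRR7 and of prr7-3 for experiment 1, and none for experiment 2. The experiment 2 IP of prr7-3 was not analysed here, and the labels do not state the hour of harvest.

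HA-PRR7 had 685 regions in experiment 1. Experiment 2 had 380 regions in a list named KC and 355 in a list named TL, which belong to 1 sample and were counted as 1 replicate. The prr7-3 list of experiment 1 had 143. The median region held 10 IP tags in experiment 1, 74.5 in KC, 75 in TL and 15 in prr7-3, and no listed region had an IP signal below 10. Levels are the authors' own fold enrichments (IP signal over control signal at the summit, with the control raised to 1 where lower) and tag counts. In KC and TL every member region but that of BBX30 had a control signal below 1, so its fold equals its IP signal. The median region held 14 control tags in experiment 1 and 0 in KC and TL. Library depths and control libraries are not given, so a level was compared between members only within a list. Intervals are exact Poisson intervals at 95% and cover counting error only, with tags taken as independent. Nothing states that duplicate reads were removed, and if they were kept the intervals are too narrow. With 1 library in each experiment, the spread between plants is unknown.

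HA-PRR7 had a region at 6 of the 7 genes in at least 1 list (at BBX30 in KC alone), at BBX32 in no list, and at 4 genes in both experiments. The share of all genes with a region in at least 1 list was not calculated. In experiment 1, BBX24, BBX28, BBX29 and BBX31 had a region, which is 57.1% of the members, where 5.01% of all protein-coding genes had one. In experiment 2, 6 members had a region in KC, where 2.9% of all genes had one, and 5 had one in TL, where 2.71% of all genes had one. These 5 (BBX24, BBX25, BBX28, BBX29 and BBX31) were in both lists, as were 2.34% of all genes. The 4 genes with a region in experiment 1 and in both lists of experiment 2 are set against 0.663% of all genes. At 3 of them, BBX24, BBX28 and BBX29, the regions of the experiments also overlapped, as they did for 0.557% of all genes. The prr7-3 list held no region at any of the 7 genes, where 1.03% of all genes had one. Because the members were picked from these lists, nothing is read from their shares against those of all genes.

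**Figure D1:**
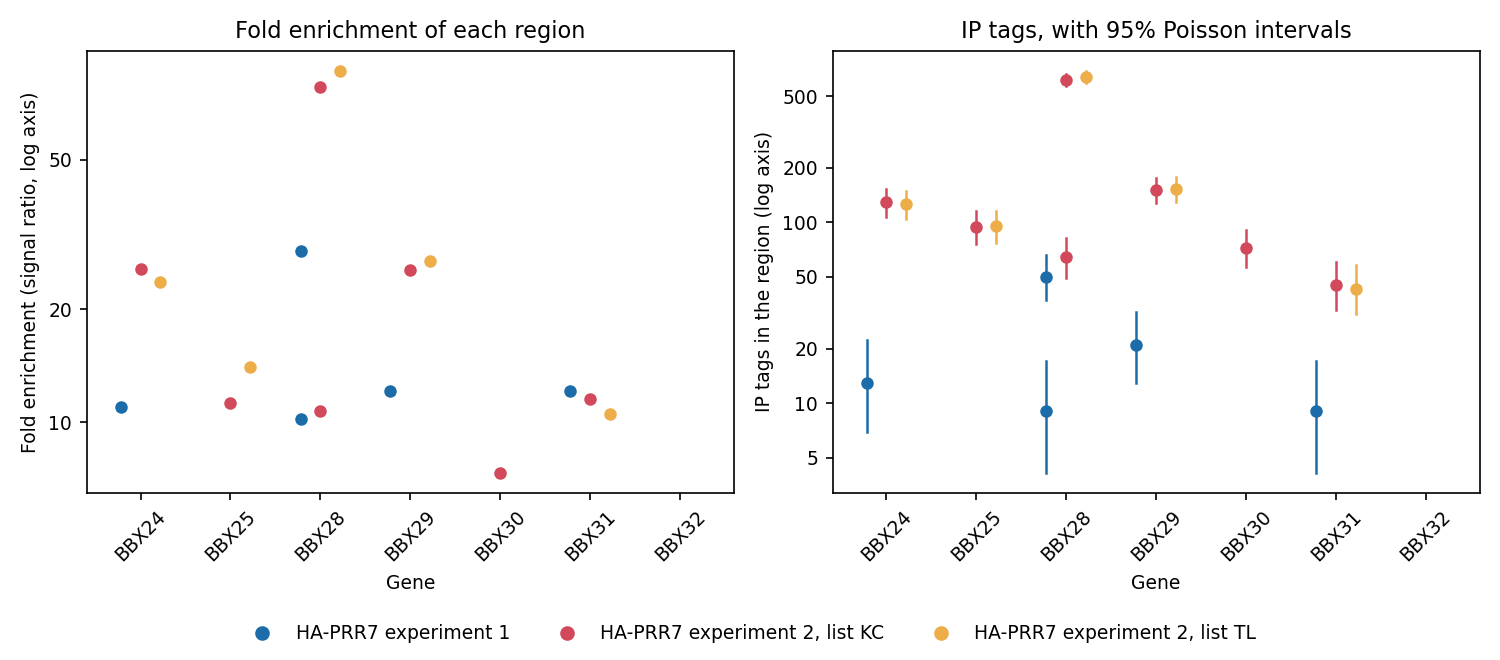
The left panel plots the fold enrichment of each region (log axis) and the right panel its IP tags (log axis) with 95% Poisson intervals, by gene and by list. The main BBX28 region stands above every other member region in each list, with 50, 615 and 638 IP tags, and BBX32 has no point.

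BBX28 had the highest region of the 7 genes in every HA-PRR7 list. In experiment 1 the region lay on chromosome 4 at 13674856 to 13675245 (TAIR10), where the fold enrichment was 28.7 from 50 IP tags (interval 37.1 to 65.9). In KC it had 78.2-fold enrichment and 615 IP tags (567.3 to 665.6), and in TL 86.2-fold enrichment and 638 IP tags (589.4 to 689.5). It ranked 5 of 685 by fold in experiment 1 and 2 in both lists of experiment 2. No control tag fell in the region in KC or TL, and 20 control tags did in experiment 1. The summit stood between genes, 526 bp from the lower-coordinate end of BBX28 in experiment 1 and 409 and 403 bp from it in KC and TL, within a gap of 3123 bp that AT4G27300 bounds on the other side. AT4G27300 was 2598 to 2721 bp from the summit, so BBX28 was the nearest gene in all 3 lists. The gene table gives no strand, so it is not said here whether the region is upstream or downstream of a gene.

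The BBX28 summits of the experiments were 117 bp (KC) and 123 bp (TL) apart. Over the 81 overlapping pairs of regions of experiment 1 and KC, the median distance between summits was 23 bp, with an interquartile range of 13 to 53 bp. The BBX28 distance was therefore at the far end, with 76 of the 81 pairs at or below it (BBX28 included), although the experiment 1 region lay wholly within the KC region. KC and TL put the BBX28 summit 6 bp apart, where the median of 297 pairs was 4 bp.

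BBX28 also had a low region in experiment 1 and another in KC, at different places. The experiment 1 region, on chromosome 4 at 13672793 to 13672927, had 10.2-fold enrichment and 9 IP tags, against 13 control tags. Its summit was 2665 bp from BBX28 and only 459 bp from AT4G27300. This was the member region nearest to the 3000 bp limit. The first region beyond the limit at any member was one of untagged prr7-3 on chromosome 1 at 1835383 to 1835541, which stood 5486 bp from BBX24 with 8.26-fold enrichment and 19 IP tags. The KC region lay 112 bp beyond the higher-coordinate end of BBX28, at 13676990 to 13677250, and held 64 IP tags at a fold enrichment of 10.8. It ranked 255 of 380, and TL held no region there.

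BBX29, which like BBX28 has a lone B-box and no CCT domain, had the next highest region by IP tags in all 3 lists. The region lay on chromosome 5 at 22115869 to 22116187 in experiment 1, where 21 IP tags (interval 13 to 32.1) gave a fold enrichment of 12.1. It held 9 control tags there. In KC it had 25.4-fold enrichment and 151 tags (127.9 to 177.1), and in TL 26.9-fold enrichment and 153 tags (129.7 to 179.3). Its rank by fold was 122 in experiment 1, 33 in KC and 25 in TL, while its rank by IP tags was 44, 49 and 44. The control signal of 1.44 at this summit in experiment 1 divides the IP signal of 17.5, and the control signal in KC and TL was 0. The summits stood 428 to 465 bp beyond the higher-coordinate end of BBX29, in a gap of 2464 bp before AT5G54480. They were 37 bp (KC) and 34 bp (TL) apart between the experiments and 3 bp apart between KC and TL.

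BBX24, first described as SALT TOLERANCE, had its summit inside the gene, near the higher-coordinate end, and the region ran past that end in all 3 HA-PRR7 lists. On chromosome 1 the region spanned 1829845 to 1830047 in experiment 1 and 1829660 to 1830152 in KC. The fold enrichment was 10.99 in experiment 1, 25.6 in KC and 23.6 in TL. The IP tags were 13 (interval 6.92 to 22.2), 129 (107.7 to 153.3) and 126 (105 to 150) in the same order. In experiment 1 the region held 13 control tags, as many as its IP tags. Control tags are whole-number counts from a library whose depth is not given. The region ranked 223 by fold in experiment 1, 32 in KC and 33 in TL. The summits lay 95.9%, 98.4% and 98.5% of the way along the gene from its lower end, and AT1G06045, annotated within the BBX24 span, ended 50 to 94 bp below them. AT1G06050 began 512 to 556 bp above the summits. The summits of the experiments were 42 bp (KC) and 44 bp (TL) apart.

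BBX25, or STO HOMOLOG, is the nearest relative of BBX24 and had a region in experiment 2 alone. On chromosome 2 the region spanned 13381594 to 13381998 in KC, with 11.2-fold enrichment and 94 IP tags (interval 76.0 to 115.0). In TL it had 14.0-fold enrichment and 95 tags (76.9 to 116.1). The summit stood 44 bp (KC) and 64 bp (TL) below BBX25 and inside the neighbouring gene AT2G31370, which the gene table also names PosF21, so the region belongs to both genes by the rule. The summits of the pair of lists were 20 bp apart, and 280 of the 297 overlapping pairs were at or below that distance (BBX25 included). In experiment 1 the nearest region to BBX25 was 116.1 kb away. In the fifth of KC regions with 85 to 122 IP tags, which holds BBX25, 15 of 76 (19.7%) overlapped an experiment 1 region, against 41 of 76 (53.9%) in the fifth with the most tags, which holds BBX24, BBX28 and BBX29. The part of tag number in the absence of a BBX25 region from experiment 1 was not tested.

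BBX30 and BBX31, the microprotein genes, had regions in 1 and 3 of the HA-PRR7 lists, and neither had overlapping regions in both experiments. BBX30 had a region in KC alone, on chromosome 4 at 8708569 to 8708781, with 72 IP tags (interval 56.3 to 90.7). Its fold enrichment of 7.35 ranked 313 of 380, with a control signal of 1.92, while it ranked 200 by IP tags and 161 by IP signal. The summit was 167 bp below BBX30, in a gap of 1792 bp after AT4G15245. TL had no region within 222.3 kb of BBX30 and experiment 1 none within 11007 bp. Of the 380 KC regions, 83 had no overlapping TL region. Of these 83, 24 held at least as many IP tags as that of BBX30, which ranked 200 of 380 by IP tags.

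BBX31 had a region inside the gene in all 3 HA-PRR7 lists, but the experiments placed it differently. In experiment 1 it was at 7709334 to 7709447 on chromosome 3, halfway along the gene (50.5% from the lower end). It had 12.1-fold enrichment and 9 IP tags (interval 4.12 to 17.1), against 8 control tags. In KC it was at 7709772 to 7709923, 92.0% along the gene, with 11.6-fold enrichment and 45 tags (32.8 to 60.2). In TL it had 10.6-fold enrichment and 43 tags (31.1 to 57.9) at 92.4% along the gene. The summits of the experiments were 456 and 460 bp apart and the regions were separated by 324 bp (KC) and 334 bp (TL), so no region recurred. In experiment 1, 112 regions held 9 IP tags, as this one did, and 2 of them overlapped both lists of experiment 2. By IP tags the BBX31 region ranked 398 of 685 in experiment 1, 364 of 380 in KC and 349 of 355 in TL, and by fold it ranked 125, 207 and 262.

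The BBX30 and BBX31 regions were also within 3000 bp of another B-box gene, because each of these genes has a CONSTANS-LIKE neighbour. The BBX30 summit was 1093 bp from BBX9 (AT4G15250), on the far side of BBX30. The BBX31 summits were 1043 bp (experiment 1), 1499 bp (KC) and 1503 bp (TL) from BBX10 (AT3G21880). In both cases the member was the nearer gene.

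BBX32 had no region within 3000 bp in any list. Its nearest region was 129.6 kb away in experiment 1, 296.1 kb away in KC and in TL, and 994.4 kb away in prr7-3. The nearest region in KC and in TL was that of BBX31, which is on the same chromosome.

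**Figure D2:**
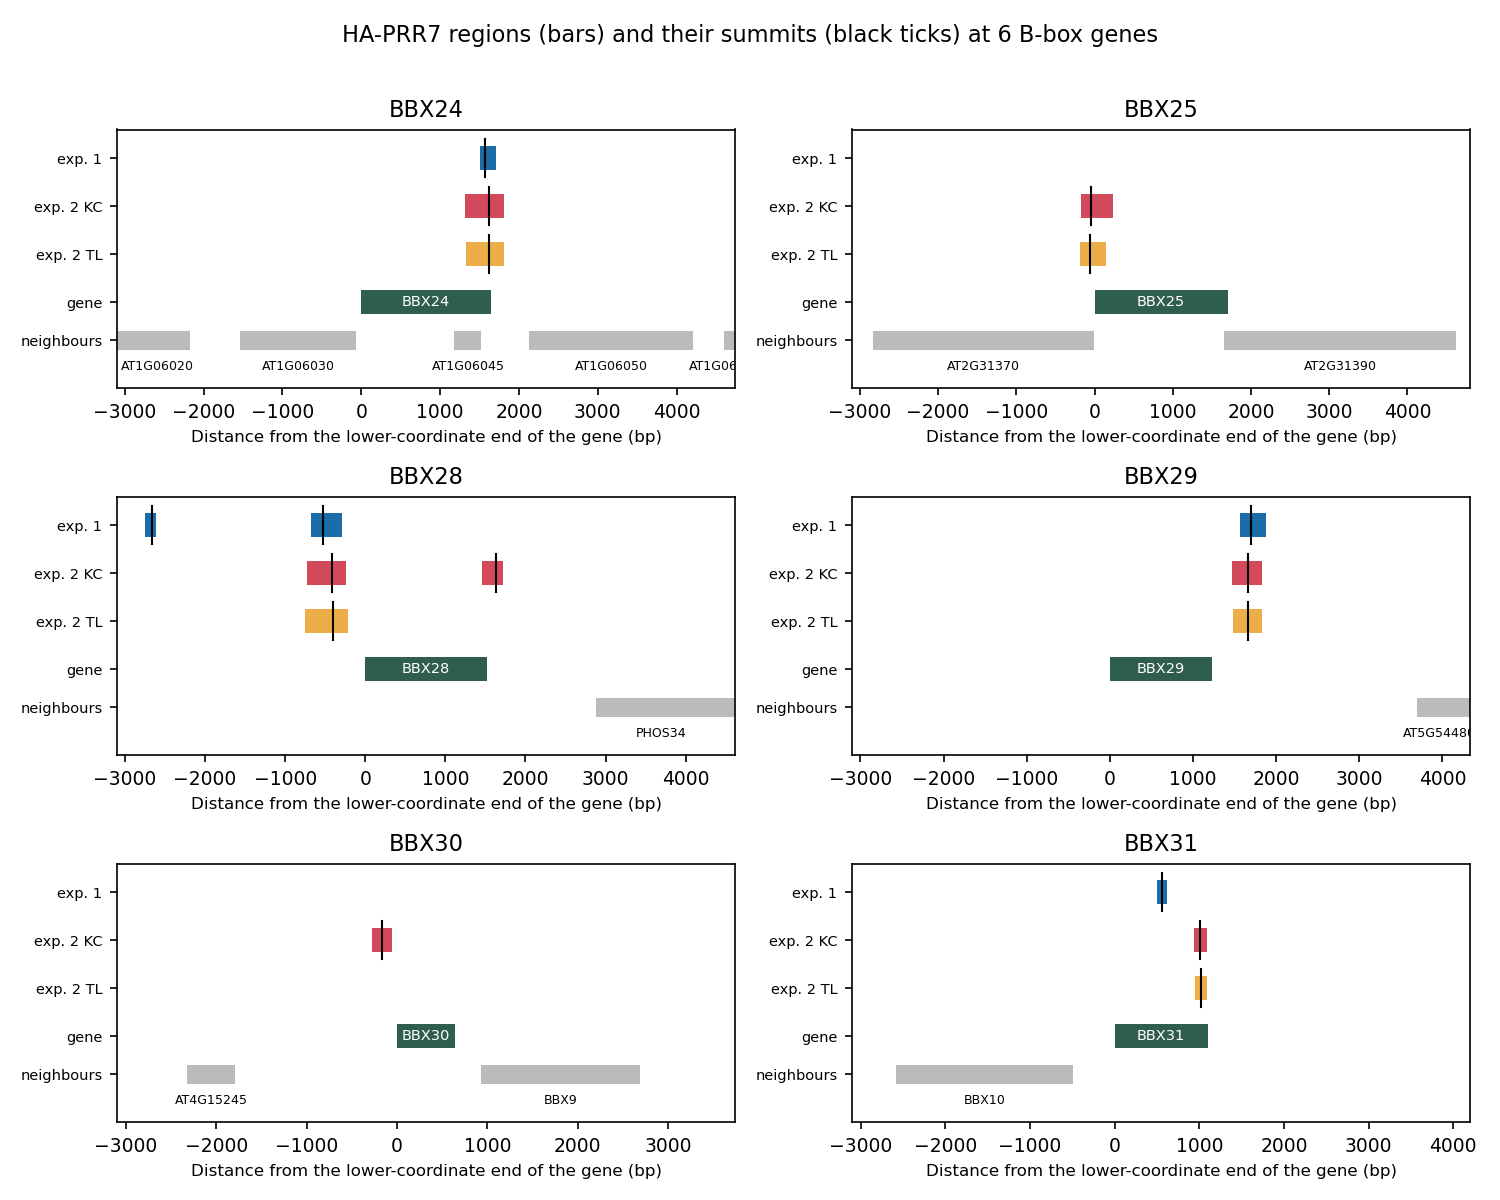
Each panel maps the HA-PRR7 regions (coloured bars, with summits as black ticks) of experiment 1, KC and TL, the gene (green) and neighbouring protein-coding genes (grey) along the distance in bp from the lower-coordinate end of the gene. The BBX24, BBX28 and BBX29 regions overlap between experiments, the BBX31 regions are 324 bp or more apart, and BBX25 and BBX30 have no region in experiment 1.

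The order of the members by IP tags was BBX28, BBX29, BBX24 and then BBX31 in experiment 1, and BBX28, BBX29, BBX24, BBX25 and BBX31 in TL. KC had the same order as TL with BBX30 between BBX25 and BBX31. BBX28 stood clear of BBX29 in every list. The ratio of their tags was 2.38 in experiment 1 (exact interval 1.40 to 4.17), 4.07 in KC (3.40 to 4.90) and 4.17 in TL (3.49 to 5.01), and the interval of experiment 1 takes in the ratio in KC. For BBX29 over BBX24 the interval of the ratio took in 1 in every list (ratio 1.62, 0.77 to 3.51, in experiment 1; 1.17, 0.92 to 1.49, in KC; 1.21, 0.95 to 1.55, in TL). BBX24 held more tags than BBX25, by a ratio of 1.37 in KC (1.04 to 1.81) and 1.33 in TL (1.01 to 1.75). In KC the ratio was 1.31 for BBX25 over BBX30 (0.95 to 1.80) and 1.60 for BBX30 over BBX31 (1.09 to 2.38). In TL BBX25 exceeded BBX31 by 2.21 (1.53 to 3.25), and in experiment 1 the ratio of BBX24 to BBX31 was 1.44 (0.57 to 3.83). All these ratios compare tags of whole regions and are not corrected for region width. In TL the BBX25 region spanned 331 bp against 144 bp for BBX31, and in KC the BBX30 region spanned 213 bp against 152 bp.

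The lists also hold a tag enrichment, from which the tags expected in a region follow by division, and by this measure BBX24 ranked lower in experiment 2. In KC the tag enrichment was 37.1 for BBX28, 12.3 for BBX29, 6.90 for BBX25, 6.10 for BBX30, 5.47 for BBX24 and 4.44 for BBX31. In TL it was 35.5 for BBX28, 12.9 for BBX29, 8.51 for BBX25, 7.76 for BBX24 and 4.23 for BBX31. In KC the BBX24 region held 2 control tags, and 23.6 tags were expected there, while TL had no control tag and 16.2 expected tags. In experiment 1 the tag enrichment was 16.7 for BBX28, 8.58 for BBX29, 5.63 for BBX24 and 3.90 for BBX31. BBX28 and BBX29 led by IP tags and by tag enrichment in all 3 lists. Expected tags were at the lowest value of the list for BBX24 and BBX31 in experiment 1 (2.31). The same held for BBX31 in KC (10.13) and TL (10.16). In TL, expected tags rose with width, from 11.2 at 331 bp (BBX25) to 16.2 at 481 bp (BBX24) and 18.0 at 533 bp (BBX28). Tag enrichment was therefore not independent of IP tags or of region width. By fold the order changed in 2 lists: BBX24 (25.57) stood above BBX29 (25.39) in KC, and BBX31 stood above BBX24 in experiment 1 (12.11 against 10.99) and above BBX25 in KC (11.56 against 11.24).

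The regions also differed in width and place. The BBX28 region spanned 390 bp in experiment 1, 493 bp in KC and 533 bp in TL, where the list medians were 135, 267 and 269 bp. The BBX31 regions were the narrowest member regions in each list, at 114, 152 and 144 bp. Of the member regions, 2 of 5 summits in experiment 1, 3 of 7 in KC and 3 of 5 in TL were inside a gene, and all the others were between genes and within 1000 bp of one. Over the lists, 69.5% of nuclear summits were inside a gene in experiment 1, 31.7% in KC and 32.4% in TL.

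The regions of BBX28, BBX29 and BBX24 were set against the 70 experiment 1 regions that overlapped both lists of experiment 2, by rank of fold enrichment in the 3 lists. Likeness was the distance between log10 ranks over the 3 lists, so it rests on 2 samples. Nearest to BBX28 (ranks 5, 2 and 2) were the region between PSI-P and the clock gene CCA1 (ranks 6, 1 and 1, distance 0.43), that of the clock gene PRR9 (ranks 2, 3 and 3, distance 0.47) and that with its summit inside LNK3, a clock coactivator gene (ranks 3, 5 and 4, distance 0.55). Nearest to BBX29 (ranks 122, 33 and 25) were regions of RVE7, a MYB gene that the table lists as EPR1 (106, 30 and 30, distance 0.11), of BBX24 itself (223, 32 and 33, distance 0.29) and of FER1, a ferritin gene (97, 40 and 56, distance 0.37). The 3 regions nearest to BBX24 took in those of BBX29 (distance 0.29) and RVE7 (distance 0.33).

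**Figure D3:**
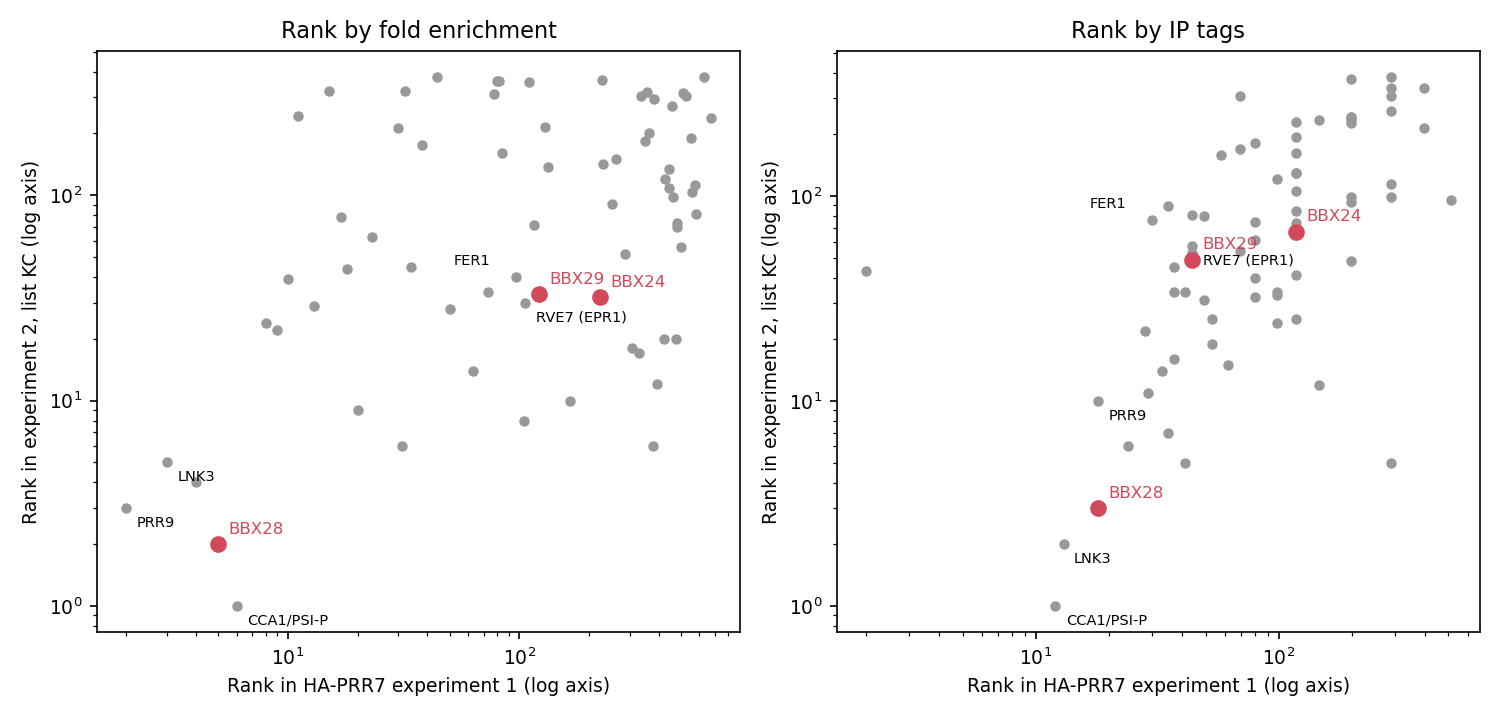
Each point is 1 of the 70 experiment 1 regions that overlapped both lists of experiment 2, plotted by its rank in experiment 1 and in KC (log axes), by fold enrichment on the left and by IP tags on the right. The B-box regions (red) are BBX28 at the lower left, with ranks 5 and 2 by fold, and BBX29 and BBX24 in the middle, with ranks 33 and 32 in KC.

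The rest of the B-box family was read by the same rule. Over all 32 genes, 6 had a region in both experiments, as did 0.663% of all genes: 4 of the members, BBX5, and BBX10 through the BBX31 region. The members were picked with these lists known, so nothing is read from this count. Of the other 25 genes, 3 had a region in experiment 1 (5.01% of all genes did) and 6 in both lists of experiment 2 (2.34% of all genes). None of the 25 had overlapping regions in both experiments, as 0.557% of all genes did, or any region in prr7-3, where 1.03% of all genes had one. Among the 6 genes with a pair of B-boxes and a CCT domain (BBX1 to BBX6, CONSTANS and its nearest relatives), 4 had a region in both lists of experiment 2: BBX2 (COL1), BBX3 (COL2), BBX5 (COL4) and BBX6 (COL5). The highest had its summit inside BBX3, with 20.7-fold enrichment and 118 IP tags in KC and 17.7-fold enrichment and 99 tags in TL. BBX6 had a summit inside the gene (15.0-fold in KC, 15.9-fold in TL) and another 1321 to 1324 bp beyond it. BBX2 had a summit inside the gene, where the fold was 12.4 in KC and 2.72 in TL, and another 313 bp beyond it (10.1 and 11.7). BBX5 alone of these had a region in experiment 1 (10.8-fold, 10 IP tags), 1445 bp above the gene, whereas its experiment 2 regions were 127 bp (KC) and 120 bp (TL) below it.

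No region was found at the 4 genes with a lone B-box and a CCT domain (BBX14 to BBX17). Of the 7 genes BBX7 to BBX13, BBX9 and BBX10 had regions, all of them shared with BBX30 and BBX31. Of the 8 genes BBX18 to BBX25, with a pair of B-boxes and no CCT domain, BBX19, a repressor of flowering that binds CONSTANS, had a region in both lists of experiment 2. Its summit was 287 bp (KC) and 276 bp (TL) below the gene, with 18.1-fold and 17.2-fold enrichment and 96 and 92 IP tags. BBX23, a promoter of seedling greening, had a region of 8 IP tags in experiment 1 alone (10.5-fold). The BBX28 region exceeded every one of these: the highest count of IP tags at a family gene outside the 7 was 118 in KC and 99 in TL, against 615 and 638 at BBX28.

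**Figure D4:**
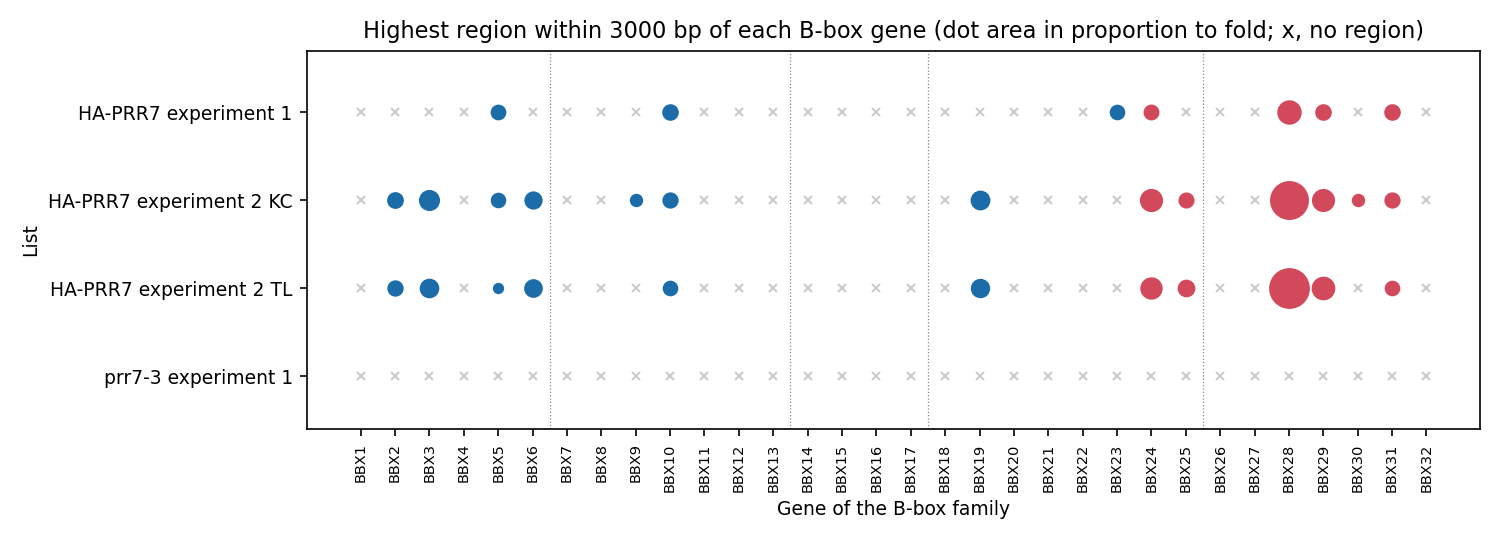
Rows are the 4 lists and columns the 32 B-box genes, with dotted lines between structural groups; the area of a dot is in proportion to the fold enrichment of the gene's highest region within 3000 bp, and a cross marks no region. Red dots are the 7 genes described here and blue dots the rest of the family; the prr7-3 row has no dot, and the BBX28 dots are the largest, at 28.7, 78.2 and 86.2.

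Genes whose proteins are known to work with B-box proteins in light and flowering pathways were taken as a list of 24. Of these, 4 had a region in experiment 1 (5.01% of all genes did), 7 in both lists of experiment 2 (2.34%) and 3 in both experiments (0.663%). None had a region in prr7-3, where 1.03% of all genes had one. The 3 in both experiments were HY5, PHYB and EMF1, and at each the regions of the experiments overlapped. The other gene of experiment 1 was PIF5, with 33.5-fold enrichment (rank 1 by fold) and 43 IP tags. It had no region in experiment 2. HY5, the bZIP factor that BBX24, BBX25 and BBX28 are known to bind, had its summit inside the gene, with 23 IP tags in experiment 1, 170 in KC and 177 in TL. The intervals were 14.6 to 34.5, 145.4 to 197.6 and 151.9 to 205.1 in the same order, and BBX29 held 21, 151 and 153 tags. By fold HY5 ranked 477 of 685 in experiment 1 (8.27), 20 in KC (29.19) and 19 in TL (29.55). HY5 left the count of genes in both experiments in the part of each list with the higher fold. EMF1, a repressor of the floral programme whose protein binds BBX32, had 16, 79 and 91 IP tags, 562 to 572 bp below the gene, while BBX32 had no region. At PHYB, the red-light receptor gene, the higher region held 20, 120 and 124 IP tags and stood 1155 to 1169 bp below the gene. AT2G18780 was nearer to that region. A lower PHYB region stood 152 bp below the gene in experiment 1 (10 IP tags) and 171 bp below it in KC (64 IP tags). TL held no such lower region. PHYB left the count of genes in both experiments with the nearest gene only or within 1000 bp. HYH, the nearest relative of HY5, had 121 IP tags in KC and 126 in TL and no region in experiment 1. Its fold enrichment was 3.69 in KC and 20.8 in TL, while its tag enrichment was 5.13 in both.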

How the data were processed

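The authors deposited lists of enriched regions with their signal values, used here for 3 IP samples: 1 list each, and 2 for HA-PRR7 of experiment 2. Per the submitters' processing notes, the aligner was Bowtie and the build TAIR10. The peak caller, its settings and its control library stand as not given in the sources used here. No label says that replicates were pooled. Per the words in the deposited files, each region has an IP and a control signal, a fold (ratio) enrichment, whole-number tag counts, a tag enrichment and -log10 p and q values. Tested on the values, the deposited fold was the IP signal over the control signal, raised to 1 where lower, in 100% of regions within 1%. Expected tags were the IP tags divided by the deposited tag enrichment.

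Regions were joined to genes by the distance of the summit from gene spans of the TAIR10.1 gene table (Python 3.11.15, numpy 2.4.6, scipy 1.17.1). That table names TAIR10.1 and the labels TAIR10, and nuclear coordinates were taken to be shared, which could not be checked here for want of sequence. All 32 family and 24 partner genes matched by locus tag. Regions overlapped when they shared at least 1 bp. Intervals of tags are exact Poisson and of tag ratios exact binomial. The joining step was tested on simulated regions. The members, gene lists and rules were chosen with earlier results of these data known. Named genes were the members, the genes beside their regions, other family genes with a region, partner genes in both experiments, and the 3 regions nearest in rank to each recurring member, of which 1 at BBX24 is not reported here. HYH, PIF5, HFR1 and TPL, chosen after their values were seen, and AT1G06045 and AT2G18780 stand outside the rule. The planned motif search was not run, because no genome sequence was used here.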

Additional observations from a re-analysis of the deposited data

How the results depend on the processing

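Of 60 counts of genes recomputed under other settings, 52 stayed within 1.5 times the reported count and 8 did not. Members with a region in both lists of experiment 2 fell from 5 to 3 (BBX24, BBX28, BBX29) in the part of each list with the higher fold. B-box family genes in both experiments fell from 6 to 3 (the same 3 genes) in the parts with the better q value or the higher fold, and where regions had to overlap by 1 bp or by 50% of the shorter one. Partner genes in both experiments rose from 3 to 5 within 5000 bp, with HFR1 and TPL. Leaving out either HA-PRR7 experiment, which takes the genes of the remaining experiment alone, gave 4 to 5 members, 7 to 11 family genes and 4 to 7 partner genes. Without replicate 1 (experiment 1) these were 5, 11 and 7, among them BBX25, the CONSTANS-LIKE genes and BBX19. Members in both experiments numbered 3 to 5 over all 13 alternatives. Counting only regions with at least 10 IP tags, a choice made after the values were seen, left 3 members in experiment 1 and in both experiments, without BBX31. With the nearest gene only, BBX25 was lost to AT2G31370. The higher PHYB region went to AT2G18780, which left PHYB without a region in TL. All 17 member folds were lower as tag enrichments, by up to 4.68 times, as were 99.1% of experiment 1 regions and 87.9% of KC regions. Of 51 ranks by IP tags, signal or q value, 34 moved beyond the exact binomial interval of the rank by fold. That interval served as a yardstick only, because a rank in a fixed list is not a count of independent trials. No paired analysis was possible because listed regions were counted with no model over replicates, and 1 prr7-3 IP had a list used here. The G-box and ACGT alternative was not run, as no sequence was used here. Library depth is unknown. Experiment 1 listed regions with as few as 6 IP tags, whose counting intervals are wide, and the median region of experiment 2 held 0 control tags.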
